A study of Mus musculus with 2 samples.

Results

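Fc receptors bind the constant part of antibodies, and ITAM adaptors are small membrane chains that carry the signal of such receptors into the cell. The genes described here are Fcgr1, Fcgr2b, Fcgr3 and Fcgr4, which encode the mouse receptors for immunoglobulin G, Fcgrt, which encodes the heavy chain of the neonatal Fc receptor, and the adaptor genes Fcer1g and Tyrobp. They were taken as 7 named genes, with every non-control probe whose transcript accession belonged to them. Each of the 7 genes had 1 probe, among 39429 probes and 20655 named genes on the array. The set was drawn up with the signals and the differences of these arrays known, so its values are given as a description and carry no test.

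The samples were E13.5 blood cells from the fetal liver of mice, carrying SoNar, a fluorescent sensor of the cytosolic balance of NADH and NAD+. Cells were sorted into those whose F405/F488 sensor ratio was high and those whose ratio was low, and total RNA of each population was labelled with Cy3 and hybridised to an Agilent array. The SoNar-high sample is labelled C57BL/6 and the SoNar-low sample C57BL, while the labels do not state how the sensor was introduced or how many livers were pooled. With 1 array per group, no difference has a replicate error and no p-value is given, and precision is limited by having so few arrays.

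Fc gamma receptors sit on macrophages, monocytes, neutrophils, natural killer cells, mast cells and B cells, and they let these cells take up or attack what antibodies have coated. The activating receptors have no signalling motif of their own in mouse and pair with the Fc receptor gamma chain, the product of Fcer1g, whose ITAM is phosphorylated by Src family kinases and then recruits the kinase Syk. Fcgr2b is the inhibitory receptor: it carries an ITIM in its own tail, which recruits the phosphatase SHIP, the product of Inpp5d. Tyrobp, also called DAP12, is the matching adaptor of TREM, SIRP beta and many natural killer receptors. In fetal liver, macrophages form the centre of erythroblastic islands and engulf the nuclei that red cell precursors expel.

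Of the 7 genes, 6 were well above background on both arrays, and all 6 had a higher scaled signal in SoNar-high than in SoNar-low cells. Fcgr4, Fcgrt, Fcer1g and Fcgr3 were 2-fold or more higher, Tyrobp and Fcgr2b were within 2-fold, and Fcgr1 was well above background in SoNar-high cells only. The median difference of the 6 measured genes was 1.48 (log2, SoNar-high minus SoNar-low), beside a median of -0.08 over all 10223 genes measured on both arrays. Of those 10223 genes, 5.28% were higher by 2-fold or more in SoNar-high cells and 4.44% were lower by as much; because the set was chosen on this contrast, nothing is read from 4 of 6 against that share. In sorted populations measured in bulk, fewer cells of a type and less RNA per cell cannot be told apart.

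**Figure D1:**
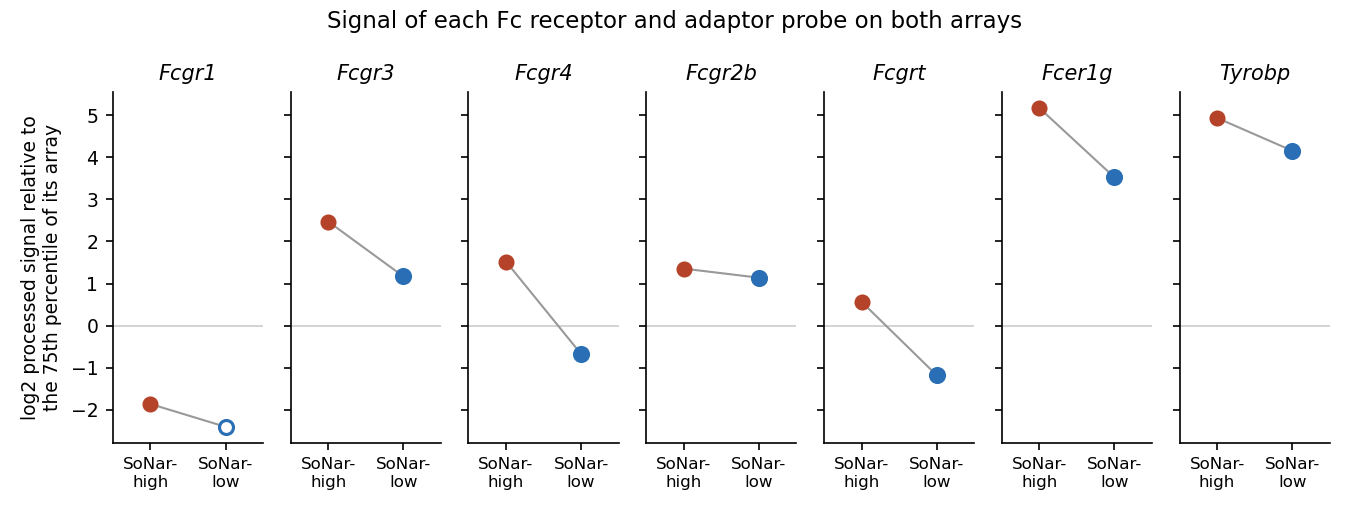
Signal of the probe of each gene on the SoNar-high array (left, red) and the SoNar-low array (right, blue), as log2 of the processed signal relative to the 75th percentile of its own array; the open circle marks a probe not well above background. Each line joins the 2 arrays for 1 probe, and all 7 lines run down from SoNar-high to SoNar-low, from 2.20 for Fcgr4 to 0.22 for Fcgr2b; levels of different probes are not comparable.

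Of 43020 spots, 49.4% were well above background in SoNar-high and 42.4% in SoNar-low cells. The 75th percentile used for scaling was 187 scanner units for SoNar-high and 222 for SoNar-low cells, so equal processed signals correspond to a higher scaled value in SoNar-high cells. Spot error was read from 213 probes with 10 spots each, all measured on both arrays, whose log2 difference had a median SD of 0.15 between spot pairs. This spread covers printing and scanning only, not the sort, the animals or the labelling.

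The activating receptors for immunoglobulin G were higher in SoNar-high cells, where they could be measured. Fcgr4, which binds the IgG2 subclasses in mouse, gave a processed signal of 536 in SoNar-high cells, against 139 in SoNar-low cells. After scaling it was 4.59-fold higher (log2 difference 2.20), which placed it 39th from the top among all measured genes. Fcgr3, the low-affinity activating receptor that natural killer cells also carry, gave 1035 in SoNar-high cells and 499 in SoNar-low cells. It was 2.47-fold higher (1.30), and 97.2% of measured genes had a smaller difference. Probes printed 10 times with a level near those of Fcgr4 and Fcgr3 had a median spot SD of 0.15 in both cases, so both differences are larger than the spot error.

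Fcgr1, the high-affinity receptor typical of monocytes and macrophages, was close to background on both arrays. Its probe gave 51.2 in SoNar-high cells, well above background, and 41.9 in SoNar-low cells, not well above background. The SoNar-low value lay above 37.1, the lowest signal well above background on that array. The bound of 1.46-fold higher in SoNar-high cells is therefore a plain difference between single spots, short of the 2-fold size used here. It was 1.18-fold to 1.65-fold over the alternatives. Of 1620 genes detected in this way on the SoNar-high array only, 12.4% had a bound of at least 2-fold. At a signal this low, the spot SD of repeated probes was 0.20. With a single spot per array, 1.46-fold is not a least size for the difference of Fcgr1.

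Fcgr2b, the inhibitory receptor of B cells, myeloid cells and liver sinusoidal endothelium, was the measured gene with the smallest difference of the set. Its probe was printed 10 times, which makes it the member with the best measured level. The 8 spots used on the SoNar-high array lay between 455 and 503 (median 476), and the 10 spots on the SoNar-low array between 385 and 644 (median 478). The ranges overlapped, and the SoNar-high spots lay inside the range of the SoNar-low spots. The mean was 477 ± 15.1 in SoNar-high cells (SD over 8 spots) and 495 ± 79.0 in SoNar-low cells (SD over 10 spots). After scaling, the difference was 0.22 ± 0.07 (log2, standard error over spots only), or 1.16-fold.

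The scanner marked 2 further Fcgr2b spots on the SoNar-high array as outliers, and these were the brightest there, at 593 and 636. With them kept, the difference was 0.29. The spread of the 10 spots on the SoNar-low array (SD 0.23 on the log2 scale) was larger than that of 180 of the 213 repeated probes, whereas the spread on the SoNar-high array (SD 0.05) was larger than that of 42 of them. The sign of the Fcgr2b difference was positive under all 10 alternatives that gave it a value, from 0.13 to 0.39. The filters on dim probes and the median over its 1 probe could not change that value. The unscaled mean signal was lower in SoNar-high cells.

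**Figure D2:**
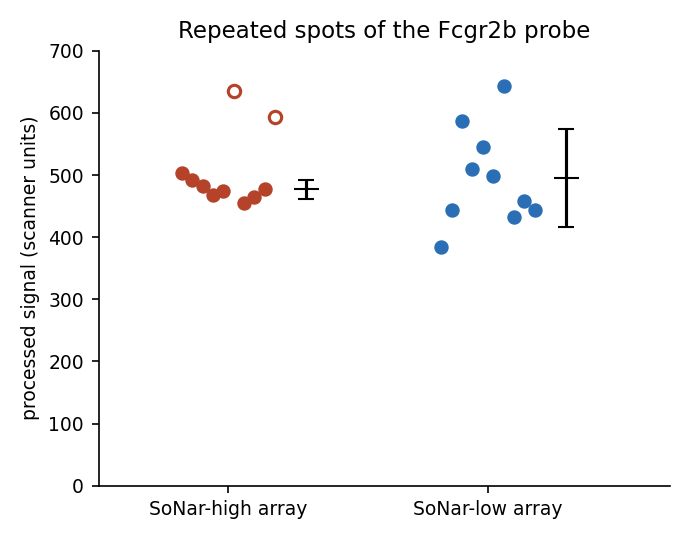
Processed signal, in scanner units on an axis that starts at 0, of each spot of the Fcgr2b probe on the SoNar-high array (left) and the SoNar-low array (right); open circles are spots marked as outliers and left out, and bars are the mean and SD of the spots used. The used SoNar-high spots sit between 455 and 503, inside the range of 385 to 644 of the SoNar-low spots.

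Fcgr4, Fcgr3 and Fcgr2b are neighbours on chromosome 1, and their unequal differences can be set against each other within the arrays, where scaling cancels. The difference of Fcgr4 exceeded that of Fcgr2b by 1.98 (1.47 to 1.98 over the settings tried), and that of Fcgr3 exceeded it by 1.09 (1.02 to 1.12). Fcgr2b and Fcgr3 are close copies in the part that encodes their extracellular domains, and probe sequences were not used here, so how far their probes share targets is not known. The promoter windows of the 4 Fc gamma receptor genes are shown because they hold the differing members side by side. They run from 250 bases before to 50 bases after the annotated start, from RefSeq on build GRCm38.p6, in the direction of the gene. Capitals mark matches on either strand to GAGGAA, the core of the box bound by the myeloid factor PU.1, and to GGAAGT, a core that many ETS factors bind; the letters of overlapping or adjoining matches run together. The windows lie at chr1:171018676-171018975 (plus strand) for Fcgr4, chr1:171059354-171059653 (minus strand, the first of 2 listed starts) for Fcgr3, chr3:96293920-96294219 (minus strand) for Fcgr1 and chr1:170976022-170976321 (minus strand) for Fcgr2b.
Fcgr4: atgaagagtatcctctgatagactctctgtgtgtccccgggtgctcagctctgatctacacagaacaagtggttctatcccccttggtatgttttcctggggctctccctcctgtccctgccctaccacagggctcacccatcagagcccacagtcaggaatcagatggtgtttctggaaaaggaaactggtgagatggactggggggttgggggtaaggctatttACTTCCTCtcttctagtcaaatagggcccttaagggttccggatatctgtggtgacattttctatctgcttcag
Fcgr3: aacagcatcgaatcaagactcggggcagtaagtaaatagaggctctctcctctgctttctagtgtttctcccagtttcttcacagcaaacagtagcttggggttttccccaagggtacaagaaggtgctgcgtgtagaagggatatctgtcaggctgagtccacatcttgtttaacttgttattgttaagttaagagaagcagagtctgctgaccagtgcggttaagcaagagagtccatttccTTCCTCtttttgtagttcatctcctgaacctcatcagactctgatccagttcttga
Fcgr1: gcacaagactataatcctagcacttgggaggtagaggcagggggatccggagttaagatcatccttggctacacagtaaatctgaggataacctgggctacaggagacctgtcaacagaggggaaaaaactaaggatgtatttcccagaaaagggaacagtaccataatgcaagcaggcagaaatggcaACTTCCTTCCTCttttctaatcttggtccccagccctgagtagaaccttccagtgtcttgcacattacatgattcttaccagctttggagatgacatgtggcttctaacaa
Fcgr2b: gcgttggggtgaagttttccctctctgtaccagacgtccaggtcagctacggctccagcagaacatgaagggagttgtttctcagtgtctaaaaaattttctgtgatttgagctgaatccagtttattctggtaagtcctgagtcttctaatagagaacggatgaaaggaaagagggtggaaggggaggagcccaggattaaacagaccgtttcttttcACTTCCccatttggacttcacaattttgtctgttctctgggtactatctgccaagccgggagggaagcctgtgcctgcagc

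GAGGAA was present in the windows of Fcgr4, Fcgr3 and Fcgr1, in each case on the opposite strand, beginning 22, 6 and 55 bases before the start. It was absent from the letters of the windows of Fcgr2b, Fcgrt and Fcer1g. GGAAGT was present in Fcgr4 and Fcgr1, overlapping GAGGAA in Fcgr4, and in Fcgr2b, 31 bases before the start, and it was absent from the windows of Fcgr3, Fcgrt and Fcer1g. Of all 32851 promoter windows of this length, 28.3% held GAGGAA and 23.8% held GGAAGT. A match describes letters only and is not evidence of binding.

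Fcgrt differs from the other receptors in build and role. It encodes an MHC class I-like chain that pairs with beta-2 microglobulin and returns immunoglobulin G and albumin from endosomes to the cell surface, and it is active in macrophages, endothelium and hepatocytes. Its processed signal was 276 in SoNar-high cells and 98.1 in SoNar-low cells, which after scaling was 3.35-fold higher (1.75). Repeated probes near this level had a spot SD of 0.17. B2m, its partner chain, gave 4003 in SoNar-high cells and 4363 in SoNar-low cells, a scaled difference of 0.13. The difference of Fcgrt exceeded that of B2m by 1.62 (1.14 to 1.62 over the settings tried). With a processed signal of at least 100 required on both arrays, Fcgrt was left out, since its SoNar-low signal was just under that level.

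The adaptors were both higher in SoNar-high cells, by unequal amounts. Fcer1g, the gamma chain that the activating receptors need for full surface expression in mouse, gave 6731 in SoNar-high cells and 2555 in SoNar-low cells. It was 3.14-fold higher (1.65), larger than the difference of 98.7% of measured genes. Tyrobp gave 5708 in SoNar-high cells and 3963 in SoNar-low cells, or 1.72-fold higher (0.78), a value within 2-fold. Its difference was larger than that of 91.1% of measured genes, and it stayed within 2-fold under every alternative tried, at up to 1.99-fold. The spot SD near these levels was 0.13. The difference of Fcer1g exceeded that of Tyrobp by 0.87 (0.72 to 0.87 over the settings tried). Each gene had 1 probe with 1 spot, so other scalings, filters and rules for probes or outlier spots could not change this contrast. Of the settings that could, normexp gave 0.72, and quantile normalization, the deposited table that nearly repeats it and loess gave 0.87 each.

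**Figure D3:**
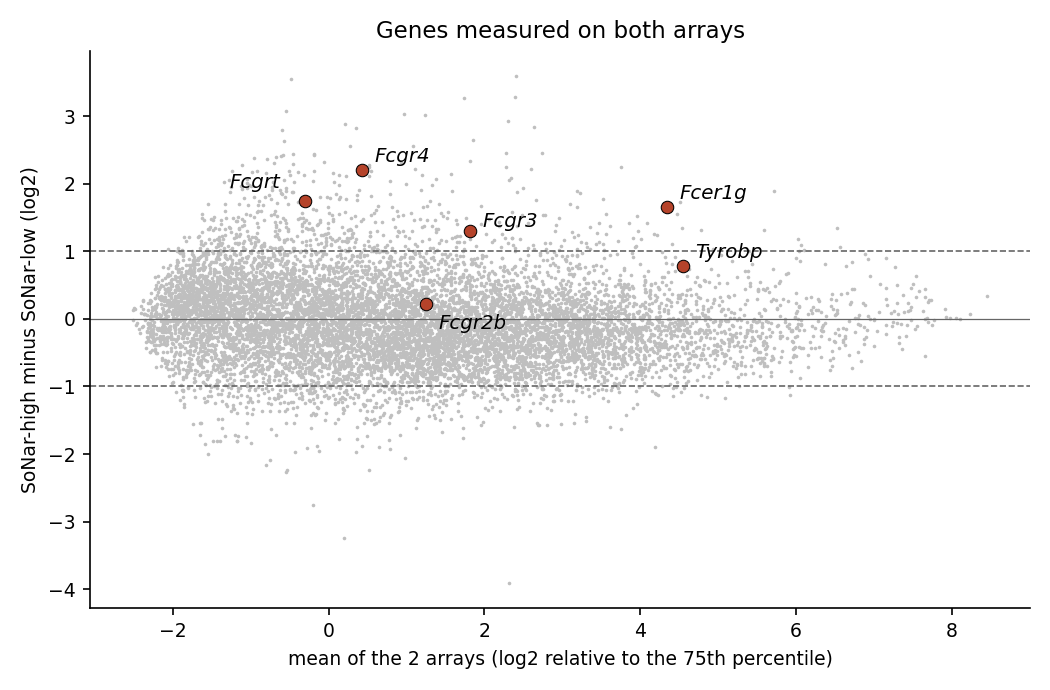
Difference between the arrays (log2, SoNar-high minus SoNar-low, vertical) against the mean of both arrays (log2 relative to the 75th percentile, horizontal) for 10223 genes measured on both arrays (grey), with 6 genes of the set marked in red and 2-fold limits dashed. Fcgr4 at 2.20, Fcgrt at 1.75, Fcer1g at 1.65 and Fcgr3 at 1.30 lie above the upper limit, and Tyrobp at 0.78 and Fcgr2b at 0.22 below it.

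The chromosome 1 members do not form an unbroken run of higher genes. In the order of the RefSeq annotation, protein-coding genes around them include Fcrlb, Fcrla, Fcgr2b, Fcgr4, Fcgr3, Cfap126, Sdhc, Pcp4l1, Nr1i3, Tomm40l, Apoa2 and Fcer1g. Between Fcgr3 and Fcer1g, the measured genes had differences of 0.08 (Cfap126), -0.38 (Sdhc, a subunit of succinate dehydrogenase), -0.76 (Pcp4l1), 0.23 (Tomm40l) and 0.89 (Apoa2, an apolipoprotein of hepatocytes). On chromosome 7, Hcst, which encodes the adaptor DAP10 and lies next to Tyrobp, gave 927 in SoNar-high cells and 597 in SoNar-low cells, a difference of 0.89 beside 0.78 for Tyrobp.

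The other Fc receptor genes were mostly not detected. Of 14 genes listed, which include B2m and Trim21, 4 were measured on both arrays and all 4 lay within 2-fold (median 0.26). B2m, the partner chain of Fcgrt, had 0.13 and Trim21 had -0.35. Fcrl5, an Fc receptor-like protein of B cells, gave 953 in SoNar-high cells and 696 in SoNar-low cells (0.71), and Pigr, the receptor that carries polymeric immunoglobulin across epithelia, gave 21552 in SoNar-high and 19607 in SoNar-low cells (0.39). Fcrla, a relative expressed in B cells, was well above background on the SoNar-low array only, where it was at least 2.52-fold higher (26.6 in SoNar-high cells, 90.5 in SoNar-low cells). After normexp background correction, which models background in place of subtracting it, this bound was within 2-fold (log2 bound -0.37, SoNar-high minus SoNar-low). Fcer2a, the low-affinity IgE receptor of B cells, was well above background in SoNar-high cells only. It gave 65.2 there and 55.8 in SoNar-low cells, a plain difference of 1.39-fold after scaling. Neither chain specific to the IgE receptor of mast cells and basophils was detected: Fcer1a gave 21.7 in SoNar-high cells and 28.5 in SoNar-low cells, and Ms4a2 gave 6.24 in SoNar-high and 34.7 in SoNar-low cells, all not well above background.

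The remaining ITAM chains are those of the T cell and B cell receptors. Of 7 genes including Hcst, 4 were measured and all 4 lay within 2-fold, with 2 above and 2 below 0. With the 75th percentile of detected probes, 2 of the 4 were higher by 2-fold or more, beside 817 of all 10223 genes. Cd79b, a signalling chain of the B cell receptor, gave 1113 in SoNar-high cells and 2613 in SoNar-low cells (-0.98), so this ITAM gene and Fcer1g differed in opposite directions. Cd3d was detected on the SoNar-high array only (at least 2.44-fold higher there), and Cd3g on the SoNar-low array only (at least 2.18-fold higher there). After normexp both bounds were within 2-fold, at 0.62 for Cd3d and -0.50 for Cd3g (log2). Cd247, the zeta chain of the T cell receptor complex, was at background on both arrays, at 6.90 in SoNar-high cells and 8.88 in SoNar-low cells.

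Receptors that pair with Fcer1g or Tyrobp, or like integrins and Csf1r are coupled to them, were measured for 20 of 28 genes on the array. Of these, 6 were higher by 2-fold or more and none was lower by as much, and the median was 0.51 with 17 genes above 0. After normexp 3 of the 20 were higher by 2-fold or more, and with the median over probes 1 was lower by as much. Over all 10223 genes measured on both arrays, 5.28% were higher and 4.44% lower under the main scaling. After normexp 251 of them were higher and 257 lower, and with the median over probes 530 were higher and 410 lower. Pilrb2, an activating paired receptor, gave 314 in SoNar-high cells and 85.5 in SoNar-low cells (4.37-fold, 2.13), and Pilrb1 gave 114 in SoNar-high and 57.6 in SoNar-low cells (2.36-fold, 1.24). These are close copies whose probes may share targets, and after normexp Pilrb2 had 1.52 and Pilrb1 was within 2-fold at 0.73. Itgb2, the common beta chain of leukocyte integrins, gave 1362 in SoNar-high cells and 627 in SoNar-low cells (1.37), and its partner Itgam gave 1358 in SoNar-high and 746 in SoNar-low cells (1.12). Clec4n, a C-type lectin receptor, had 1.21. After normexp Itgam and Clec4n were within 2-fold, at 0.99 for Itgam and 0.87 for Clec4n. Csf1r, the growth factor receptor of macrophages, gave 5979 in SoNar-high cells and 6309 in SoNar-low cells (0.18), with its 3 probes at -0.09, 0.18 and 1.02. The natural killer receptors of this list, Klrk1, Klra4, Klra8 and Ncr1, were not well above background on either array.

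Kinases that work in or near the ITAM pathway differed in both directions. The list of Src and Syk family kinases, which also holds Btk, Tec and Csk, had 9 measured genes with a median of 0.19. Of these, 1 was higher by 2-fold or more and 1 lower by as much. The shares over all measured genes were 5.28% higher and 4.44% lower. Fgr, a Src family kinase of neutrophils and macrophages, gave 462 in SoNar-high cells and 203 in SoNar-low cells (1.44), whereas Lck, the Src family kinase of T cells, gave 189 in SoNar-high and 590 in SoNar-low cells (-1.39). Btk, a kinase of B cells and myeloid cells, gave 399 in SoNar-high and 868 in SoNar-low cells (-0.87). Syk, the kinase that binds phosphorylated ITAMs, gave 1309 in SoNar-high cells and 1222 in SoNar-low cells, a difference of 0.35.

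Among 21 measured signalling genes below the kinases, 2 were higher by 2-fold or more and 2 lower by as much. Over all 10223 measured genes, 5.28% were higher and 4.44% lower by as much. Of the 21 genes, 16 lay above 0 and the median was 0.48. With the 75th percentile of detected probes, 5 of the 21 and 817 of all 10223 genes were higher by 2-fold or more. Blnk, the adaptor of the B cell receptor, gave 704 in SoNar-high cells and 2497 in SoNar-low cells (-1.57), and Lat2, an adaptor of B cells and mast cells, gave 179 in SoNar-high and 523 in SoNar-low cells (-1.30). Ncf1, a cytosolic subunit of the phagocyte NADPH oxidase, gave 1892 in SoNar-high cells and 1033 in SoNar-low cells (1.13). Cyba, a membrane subunit of that oxidase, gave 10694 in SoNar-high and 7286 in SoNar-low cells (0.81), while its other probe gave -0.22.

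Of 20 measured inhibitory receptors and phosphatases, 3 were higher by 2-fold or more and none was lower by as much, and the median was 0.30. Over all measured genes, 5.28% were higher and 4.44% lower by as much. Cd33, a Siglec of myeloid cells, gave 321 in SoNar-high cells and 129 in SoNar-low cells (1.57), and the adaptor Dok3 gave 290 in SoNar-high and 153 in SoNar-low cells (1.18). After normexp Cd33 had 1.09, and Dok3 was within 2-fold at 0.86. Cd300lf, a myeloid inhibitory receptor, gave 2157 in SoNar-high and 1214 in SoNar-low cells (1.08), but its 3 probes spread from -0.63 to 1.08. Milr1, an inhibitory receptor of mast cells, had 0.41 and its 3 probes lay between -0.07 and 0.41. Inpp5d, the phosphatase that Fcgr2b recruits, gave 1398 in SoNar-high cells and 2362 in SoNar-low cells (-0.50), and Ptpn6, the phosphatase of other ITIM receptors, gave 1665 in SoNar-high and 1424 in SoNar-low cells (0.48).

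**Figure D4:**
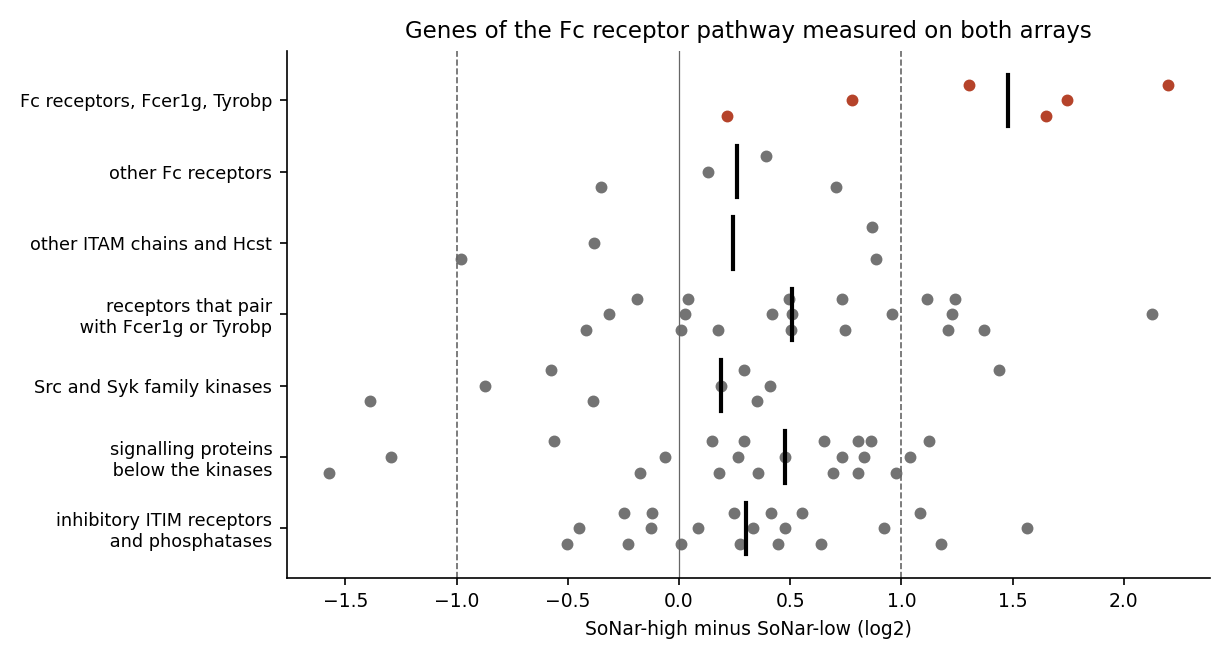
Difference of each gene measured on both arrays (log2, SoNar-high minus SoNar-low, horizontal) for the 7-gene set (top row, red, 6 genes measured) and for 6 lists of the same pathway (grey), with the median as a black bar and 2-fold limits dashed. The medians run from 0.19 for the Src and Syk family kinases to 1.48 for the set itself, which was chosen with these values known.

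Markers of cell types that carry Fc receptors differed in unlike directions between the arrays. Over all 10223 measured genes, 5.28% were higher by 2-fold or more in SoNar-high cells and 4.44% lower. These shares stand beside the count of every marker list that follows. Of 11 measured macrophage markers, 9 were higher by 2-fold or more and none lower by as much (median 2.84), and their summed signal was 121 times the 75th percentile in SoNar-high cells and 43.3 times in SoNar-low cells. Such sums add probes of unlike brightness and follow the brightest: without Csf1r, the brightest macrophage marker here, they were 89.2 in SoNar-high and 14.9 in SoNar-low cells. Marco, a scavenger receptor, gave 3424 in SoNar-high cells and 338 in SoNar-low cells (3.59), and C1qa, a complement chain, gave 456 in SoNar-high and 46.6 in SoNar-low cells (3.54). Fcna, Timd4, Axl, Spic and Clec4f were detected on the SoNar-high array only, each with a bound over 2-fold (Spic had 0.81 on the log2 scale after normexp), while Cd163, Mertk and Siglec1 were not detected on either array and Cd68 had no named probe. Neutrophil markers had 5 of 14 measured genes higher by 2-fold or more and none lower by as much (median 0.59). Their summed signal was 1252 times the 75th percentile in SoNar-high cells and 875 times in SoNar-low cells. Mmp9 had the largest difference (3.27), and S100a9, the brightest, had 0.44. Of the 14, 2 lay below 0, Csf3r at -0.44 and Ngp at -0.19. Monocyte markers had 1 of 9 higher and 1 lower by 2-fold or more and a median of -0.07 (sums 85.5 in SoNar-high and 91.2 in SoNar-low cells), with Itgam at 1.12 and Irf8 at -1.21. After normexp none of the 9 was higher by 2-fold, and with quantile normalization 2 were. Of all 10223 genes, 251 were higher after normexp and 568 with quantile normalization.

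Endothelial markers had 5 of 7 measured genes higher by 2-fold or more (median 1.98, sums 35.4 in SoNar-high and 22.3 in SoNar-low cells), led by Cdh5 (3.07), Stab2 (2.64) and Lyve1 (2.56). Egfl7, the brightest of them, gave 2604 in SoNar-high and 3843 in SoNar-low cells (-0.31), Pecam1 had 0.01, and without Egfl7 the sums were 21.4 in SoNar-high and 5.01 in SoNar-low cells. Hepatoblast markers had 5 of 8 higher by 2-fold or more (median 1.64, sums 73.8 in SoNar-high and 27.2 in SoNar-low cells), led by Fgg (2.44). Both tissues are known to express Fcgrt, and sinusoidal endothelium Fcgr2b as well. Erythroid markers had 6 of 10 higher by 2-fold or more (median 1.14, sums 288 in SoNar-high and 144 in SoNar-low cells) and none lower by as much, and all 10 were measured on both arrays. After normexp, where 251 of all 10223 genes were higher, the erythroid count of 6 became 4 and the endothelial count of 5 became 4. With the 75th percentile of detected probes, where 817 of all 10223 genes were higher, the erythroid count became 9 and the hepatoblast count 6. After normexp the largest marker differences were smaller, at 2.31 for C1qa, 1.91 for Cdh5, 1.94 for Lyve1 and 1.65 for Fgg.

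Most measured B lymphoid and natural killer markers were lower in SoNar-high cells. Natural killer markers had 3 of 4 measured genes lower by 2-fold or more (sums 8.90 in SoNar-high and 31.0 in SoNar-low cells), with Gzma at -3.90, while Nkg7 had 0.22 and Ncr1, Klrb1c, Tbx21 and Klrk1 were not detected. Il2rb was detected on the SoNar-low array only, where it was at least 5.74-fold higher under the main scaling. After normexp its log2 bound was -1.24 (SoNar-high minus SoNar-low). Eomes and Prf1 were detected on the SoNar-high array only, with bounds of 1.15-fold for Eomes and 1.02-fold for Prf1. Of 10 B lymphoid markers, 7 were lower by 2-fold or more and none higher by as much (median -1.53, sums 30.8 in SoNar-high and 88.4 in SoNar-low cells), with Vpreb1 at -1.90. With the 75th percentile of detected probes 6 of the 10 were lower by as much, beside 227 of all 10223 genes. With quantile normalization 6 were, beside 433 of all 10223 genes. Mast cell and basophil markers had 6 of 7 within 2-fold, 2 of them above 0 (Hdc 0.25 and Tpsb2 0.14), and 1 lower by more, Mcpt8 at -2.23 (sums 23.3 in SoNar-high and 29.7 in SoNar-low cells). Cma1 and Mcpt4 were detected on the SoNar-high array only, with bounds of 1.49-fold for Cma1 and 1.22-fold for Mcpt4. The part of these cell types in the differences of Fcgr4, Fcgr3, Fcer1g, Tyrobp, Fcgrt and Fcgr2b was not tested.

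The order of the differences, Fcgr4, Fcgrt, Fcer1g, Fcgr3, Tyrobp and Fcgr2b, depended in part on the processing. After normexp, Fcer1g led with 1.63, followed by Fcgr4 at 1.60, Fcgrt at 1.25, Fcgr3 at 1.15, Tyrobp at 0.91 and Fcgr2b at 0.13. Fcer1g also exceeded Fcgrt with quantile normalization (1.86 for Fcer1g, 1.71 for Fcgrt) and with loess (1.85 for Fcer1g, 1.75 for Fcgrt). The deposited table, which nearly repeats quantile normalization, gave 1.86 for Fcer1g and 1.71 for Fcgrt. The 4 genes higher by 2-fold or more were the same after normexp.

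**Figure D5:**
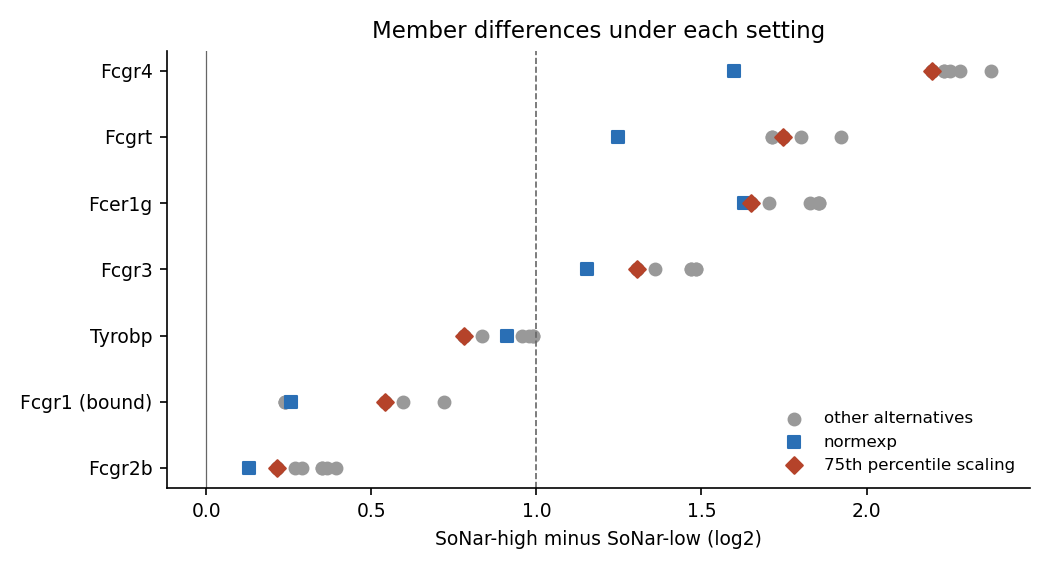
Difference of each gene (log2, SoNar-high minus SoNar-low, horizontal; for Fcgr1 the bound) under the main 75th percentile scaling (red diamonds), normexp background correction (blue squares) and the other alternatives (grey circles), with the 2-fold limit dashed. Fcgr4, Fcgrt, Fcer1g and Fcgr3 stay right of the limit wherever they have a value, Tyrobp and Fcgr2b stay left of it, and normexp gives Fcgr4 and Fcgrt their smallest values, 1.60 and 1.25.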

How the data were processed

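RNA of each population was hybridised in 1 colour, and groups were taken from the source labels. Spot intensities were deposited by the authors as Agilent Feature Extraction output with background subtracted, per the file headers, which give version 11.0.1.1 (the submitters' processing notes give 9.1). The authors' deposited value table holds log2 values whose normalization is not stated, with both medians at 4.80. Sorted, its columns differ by at most 0.000544, as quantile normalization leaves them, and its member values nearly equal those of that alternative. Its difference correlated with that of the scanner signals at 0.917. It served as an alternative, but one that nearly repeats quantile normalization.

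Control spots and outlier spots (225 SoNar-high, 135 SoNar-low) were left out. The 75th percentile of each array was subtracted from log2 processed intensities, and spots of a probe were averaged. A probe counted as measured when the majority of its spots passed the scanner's flag for signal well above background on both arrays, without saturation, and the brightest measured probe stood for a gene. A bound sets the bright value against the dim probe's own value or, if higher, the lowest value well above background there. Where the dim probe's own value is the higher, the bound is a plain difference and not a least size. Accessions in a RefSeq table of GRCm38.p6 named 27234 probes and left 12195 unnamed; its coordinates, on that build, served only for promoter windows and gene order, and no coordinate of the array design, which is on mm9, was used.

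No test was possible, and 2-fold was the size counted. Members and lists were chosen with earlier results of these data known. Named genes are all members and the 3 largest differences or bounds and the brightest gene of each list; others were named for their role or place after values were seen, and some genes the rule takes are not reported here. Alternatives were normexp (offset 50) on median spot signals and local background, 2 other scalings, quantile normalization, loess (span 0.3), the deposited table, other filters on dim probes, the median over probes and a 3-fold size. Keeping outlier spots was added after seeing the data. Python 3.11.15, pandas 2.3.3 and limma 3.58.1 were used.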

Additional observations from a re-analysis of the deposited data

How the results depend on the processing

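The count of 4 genes at least 2-fold higher held under 9 of 11 alternatives. It was 3 with a processed signal of at least 100 (Fcgrt left out) and with a 3-fold size (Fcgr3 left out). None was 2-fold lower under any of the 11. Each of these 4 genes had 1 probe with 1 spot. The median over probes, keeping outlier spots and keeping dim probes therefore could not change their values. The deposited table nearly repeats quantile normalization, so the 11 are not independent checks. The median difference of the measured genes, 1.48, was 1.20 after normexp, 1.65 with the 75th percentile of detected probes, and 1.30 both with dim probes kept and with a processed signal of at least 100; under the other alternatives it was within 0.15 of 1.48. Over the alternatives Fcgr4 ranged from 1.60 to 2.38, Fcgrt from 1.25 to 1.92, Fcer1g from 1.63 to 1.86, Fcgr3 from 1.15 to 1.48, Tyrobp from 0.78 to 0.99, Fcgr2b from 0.13 to 0.39 and the bound of Fcgr1 from 0.24 to 0.72. The median of all genes shifted by 0.18 with the 75th percentile of detected probes and by 0.11 with dim probes kept, and the split of all genes into 540 higher and 454 lower became 817 and 227 with the 75th percentile of detected probes and 251 and 257 after normexp. Why values moved was not tested. No paired analysis was possible because each group has 1 array. Signal over background limits Fcgr1 most, then Fcgrt.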

Other observations

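Subunits of the phagocyte NADPH oxidase, the enzyme that activated Fc receptors switch on in neutrophils and macrophages to make superoxide, were grouped after their values were seen. The 4 subunits given here and the GTPase Rac2, which activates the oxidase, had positive differences. The membrane chain Cybb gave 470 in SoNar-high cells and 314 in SoNar-low cells (log2 difference 0.83) and the cytosolic subunit Ncf4 5264 in SoNar-high and 3589 in SoNar-low cells (0.81), beside Ncf1 (1.13) and Cyba (0.81). Rac2 gave 8220 in SoNar-high cells and 4819 in SoNar-low cells (1.04). After normexp these were 0.54 for Cybb, 0.54 for Ncf4, 1.13 for Ncf1, 0.54 for Cyba and 1.02 for Rac2, and with the median over its probes Cyba had 0.29.

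Of C-type lectin receptors that pair with Fcer1g, also singled out after their values were seen, Clec4n gave 287 in SoNar-high cells and 148 in SoNar-low cells (1.21) and Clec4d 560 in SoNar-high and 343 in SoNar-low cells (0.96), whereas Clec4e gave 168 in SoNar-high and 228 in SoNar-low cells (-0.19). Trem1 (0.49) and Trem2 (0.42), receptors that pair with Tyrobp, lay within 2-fold, and Trem3 had 0.01.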
